A study of Mus musculus with 12 samples.

Results

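The 10 Toll-like receptor genes examined here are Tlr1, Tlr2, Tlr3, Tlr4, Tlr5, Tlr6, Tlr7, Tlr8, Tlr9 and Tlr13. They were chosen by gene name, as the non-control probes that the array files assign to these symbols, and account for 10 of the 36981 genes and 21 of the 56605 probes on the array. Total RNA from mouse heart was hybridised to single-colour Agilent arrays, with 1 array per sample and 4 groups of 3 samples. WT was wild-type heart, WT+MI wild-type heart after myocardial infarction, TG heart of mice labelled CCRR transgenosis, and TG+MI transgenic heart after infarction. CCRR is the cardiac conduction regulatory RNA, a long non-coding RNA, and the series' title ties it to inflammation after infarction and to Toll-like receptor signalling, which is the question these comparisons address. The strain, C57/BL6, is stated for WT and WT+MI only, so strain and transgene cannot be told apart. The promoter of the transgene, the age of the mice, the time from infarction to sampling, any sham operation in the uninfarcted groups and whether a group's samples came from separate animals are not stated in the labels. Each p-value and SE rests on the spread between samples within groups, pooled over the groups modelled and adjusted by limma across genes. That spread may therefore be technical.

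Toll-like receptors are membrane proteins of the innate immune system whose leucine-rich ectodomain binds microbial products or molecules from damaged cells and whose cytoplasmic TIR domain recruits adaptors such as MyD88 and TRIF. Tlr1, Tlr2, Tlr4, Tlr5 and Tlr6 act at the cell surface, and Tlr3, Tlr7, Tlr8, Tlr9 and Tlr13 sense nucleic acids in endosomes. In the heart they are carried by resident and infiltrating leukocytes, endothelium and cardiomyocytes, and their signalling through NF-kappaB and interferon regulatory factors raises cytokines and chemokines.

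The identity of a receptor rests on its probe, a 60-base oligonucleotide, and the following probes show the member probes most alike and what was read for the member with the largest difference. The probes of Tlr2 and Tlr1, whose products pair on the cell surface, read matching stretches near the end of both coding sequences, and capitals mark the 29 identical bases of the 47 that overlap in the best ungapped alignment.
Tlr2 (A_51_P452629, mm9 chr3:83640344-83640403, minus strand): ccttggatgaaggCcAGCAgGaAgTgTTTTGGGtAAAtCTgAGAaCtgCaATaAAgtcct
Tlr1 (A_51_P495581, mm9 chr5:65316115-65316174, minus strand): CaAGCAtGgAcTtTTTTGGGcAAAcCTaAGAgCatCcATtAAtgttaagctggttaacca
Tlr5 (A_66_P111367, mm9 chr1:184905770-184905829, plus strand): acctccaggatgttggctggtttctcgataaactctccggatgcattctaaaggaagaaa
Tlr4 (A_55_P2603039, mm9 chr4:66500344-66500403, plus strand): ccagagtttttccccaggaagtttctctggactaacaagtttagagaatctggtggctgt
No other pair of member probes shared more than 25 bases in such an alignment. Probes were aligned only with each other, so a match to the transcript of another member was not examined. The printed Tlr1 and Tlr4 probes are not those that stood for these genes in the test below. Tlr1 and Tlr6 are adjacent protein-coding genes on chromosome 5 in the RefSeq table of GRCm38.p6, and so are Tlr8 and Tlr7 on chromosome X.

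All 10 genes were tested. The probe with the highest mean stood for its gene, and a gene entered the test if some group had that probe well above background on each of its 3 arrays. Tlr2, Tlr4, Tlr7, Tlr8, Tlr9 and Tlr13 were well above background on all 12 arrays. Tlr1 and Tlr6 were above it on 10 arrays, Tlr3 on 11 and Tlr5 on 7, and Tlr5 was above it on no WT array. Tlr5 met the filter only in WT+MI, the group where it was highest, and Tlr6 only in WT+MI and TG+MI. The calls of Tlr5 against WT+MI, and that of Tlr6 in WT+MI against WT, are therefore not independent of the filter. Levels below are log2 signal relative to the array's 75th percentile, so 0 is the 75th percentile of the probes on that array, and levels of different genes are not compared. A difference is called where limma's Benjamini-Hochberg adjusted p over 19761 genes was under 0.05. Between 47.0% and 55.2% of probes were well above background on an array, no spot was saturated, and Spearman's rho between arrays was 0.909 to 0.962. All 6 cardiomyocyte markers were above background on every array. No spot carries the name Ccrr, so the transgene was not checked here. All WT and WT+MI arrays were on slide 1 together with TG 1 and TG 2. All TG+MI arrays were on slide 2 with TG 3, and this slide was scanned separately, so no slide holds both infarcted groups.

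Infarction of wild-type hearts was accompanied by higher signal of most Toll-like receptor genes. In WT+MI against WT, 7 of the 10 genes rose (Tlr1, Tlr2, Tlr4, Tlr5, Tlr6, Tlr8 and Tlr13) and Tlr9 fell, against a background of 18.6% of all tested genes called higher and 29.4% called lower. The median log2 difference of the 10 genes was 1.35, and that of all tested genes was -0.14. Tlr3 and Tlr7 were not called. All 6 arrays of this comparison lay on slide 1. In bulk tissue, fewer cells of a type and less RNA per cell cannot be told apart.

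**Figure D1:**
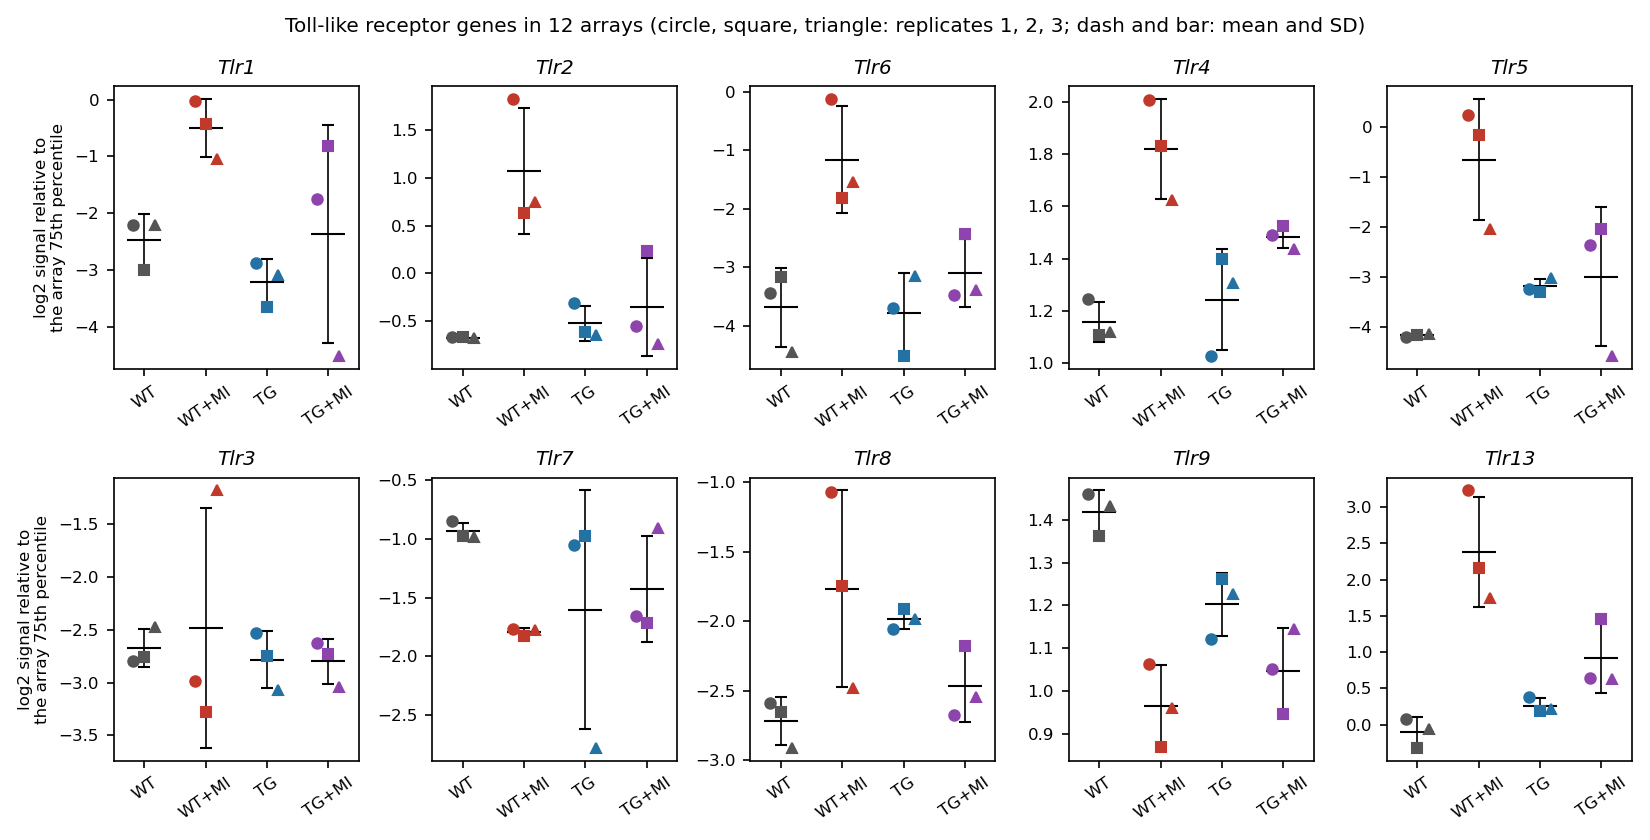
Each panel plots log2 signal relative to the array's 75th percentile (vertical axis, its range set per gene) for the 3 arrays of WT, WT+MI, TG and TG+MI, with the group mean and SD. The 3 WT+MI arrays lie above all WT arrays for Tlr1, Tlr2, Tlr4, Tlr5, Tlr6, Tlr8 and Tlr13 and below them for Tlr7 and Tlr9. Of all tested genes, 25% had WT+MI arrays wholly above and 38.7% wholly below the WT arrays.

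Tlr2 is the shared partner of the lipopeptide receptors, which it forms with Tlr1 or Tlr6. Its log2 level was -0.66, -0.67 and -0.68 in WT 1 to 3 and 1.82, 0.63 and 0.75 in WT+MI 1 to 3. The WT arrays were nearly level, and WT+MI 1 was the highest of the infarcted ones. The difference was 1.74 ± 0.31 (SE, n = 3 and 3), a 3.34-fold rise (limma adjusted p = 0.00158). Tlr1, the partner for triacylated lipopeptides, stood at -2.20, -3.01 and -2.21 in WT and at -0.02, -0.44 and -1.04 in WT+MI. The groups did not overlap, and the difference was 1.98 ± 0.75 (SE), with a limma adjusted p of 0.049 that lay just under the threshold. That call was lost in 15 of the 22 alternatives, while the second Tlr1 probe, printed above, gave 1.99 ± 0.46 (SE, limma adjusted p over probes = 0.00585). Tlr6, the partner for diacylated lipopeptides, stood at -3.44, -3.17 and -4.44 in WT, where WT 3 was not well above background, and at -0.12, -1.82 and -1.54 in WT+MI. It rose by 2.53 ± 0.52 (SE), or a fitted 5.76-fold (limma adjusted p = 0.00304). Without WT 3 the difference was 2.15 (limma adjusted p = 0.0138).

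Tlr4, the lipopolysaccharide receptor, which also answers to products of damaged cells, rose on each of its 3 probes. On the brightest its level was 1.25, 1.11 and 1.12 in WT and 2.01, 1.83 and 1.62 in WT+MI, a difference of 0.66 ± 0.13 (SE, limma adjusted p = 0.00219). This probe (A_55_P2714823) lies at chr4:66591199-66591258 of mm9 and carries an Ensembl transcript's name. It sits 87417 bases beyond the probe of the RefSeq transcript NM_021297 at chr4:66503724-66503782, a gap longer than the 19031 bases of the gene in the GRCm38.p6 RefSeq table. The NM_021297 probe rose by 1.02 ± 0.24 (SE, limma adjusted p over probes = 0.00562). The Tlr4 probe printed above, 3321 bases upstream of it, was below background on every WT and TG array. It was above background on 2 WT+MI and 3 TG+MI arrays. For WT+MI against WT this gives a bound of at least 1.6-fold higher (limma adjusted p over probes = 0.00105). The differences between the estimates of the probes were not tested. Where no probe is named below, values of Tlr4 are those of A_55_P2714823, the probe far from that of the RefSeq transcript.

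Tlr5, the flagellin receptor, had the largest fitted difference, and it entered the test only through WT+MI. It stood at -4.19, -4.15 and -4.13 in WT, where it was not well above background on any array, and at 0.24, -0.17 and -2.03 in WT+MI, where WT+MI 3 was the lowest. The fitted difference was 3.50 ± 0.66 (SE, limma adjusted p = 0.00198), and against the lowest detectable signal of the WT arrays the rise was at least 8.84-fold. The second Tlr5 probe was below background on all 12 arrays.

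**Figure D2:**
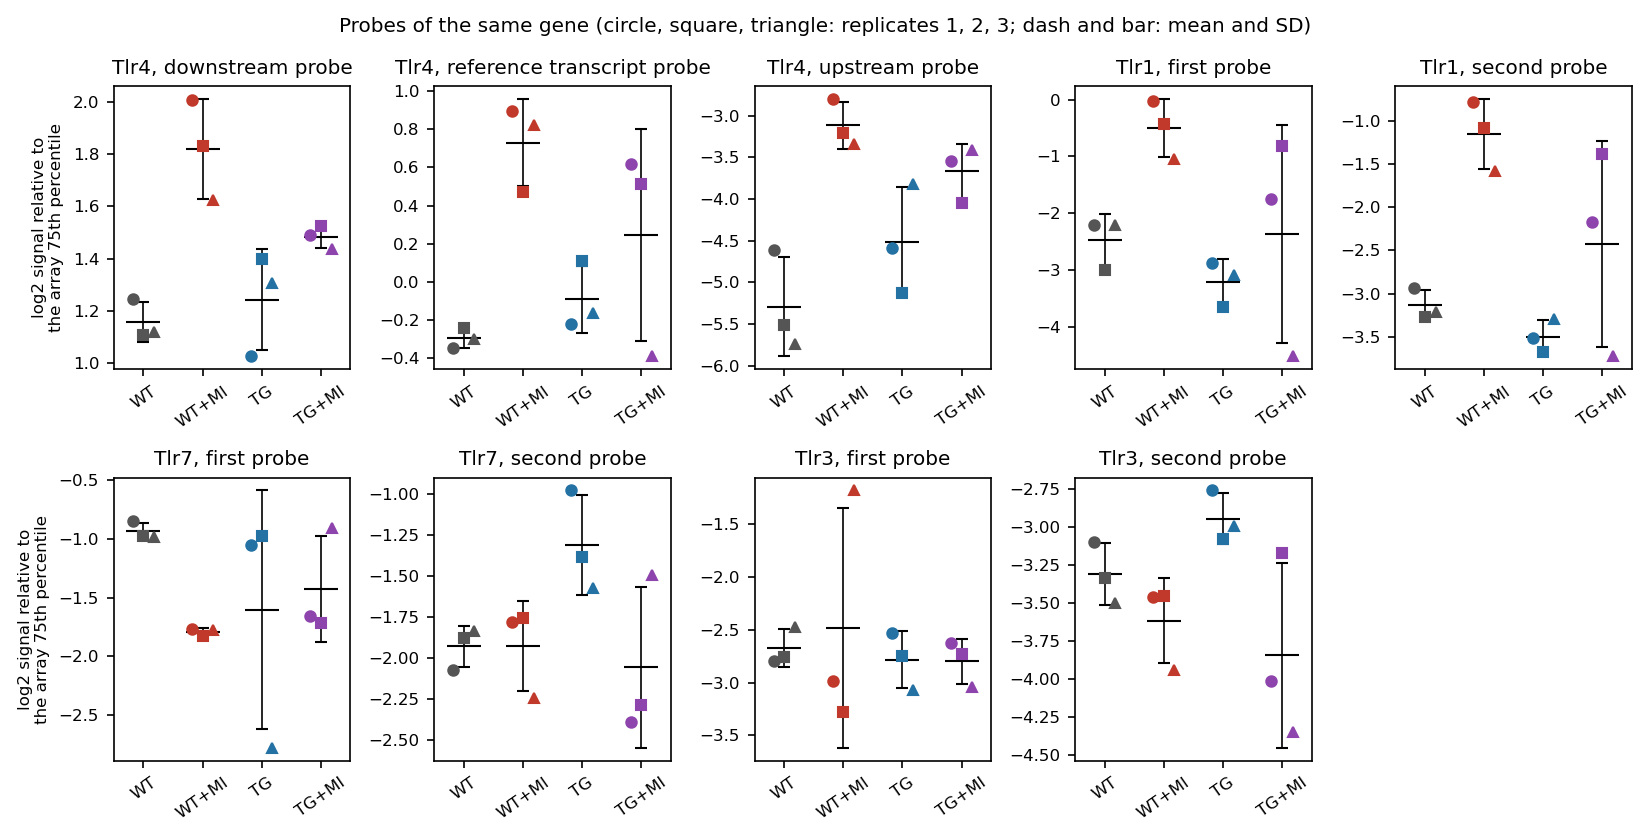
Log2 signal relative to the array's 75th percentile (vertical axis, its range set per panel) of separate probes of Tlr4, Tlr1, Tlr7 and Tlr3 on the 3 arrays of each group, with the mean and SD. All 3 Tlr4 probes and both Tlr1 probes are higher in WT+MI than in WT, whereas the low Tlr7 value of TG 3 and the high Tlr3 value of WT+MI 3 each appear on 1 probe.

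Among the endosomal receptors, Tlr13, a sensor of bacterial ribosomal RNA in mice, had the lowest adjusted p. Its level was 0.08, -0.32 and -0.06 in WT and 3.23, 2.17 and 1.75 in WT+MI. All infarcted arrays were far above the WT arrays, WT+MI 1 being the highest, and the difference was 2.48 ± 0.34 (SE), or 5.58-fold (limma adjusted p = 0.000435). A second Tlr13 probe was left out because WT+MI 1 was marked as an outlier spot. On the remaining arrays it was above background in WT+MI 2, WT+MI 3 and TG+MI 2 and in no WT or TG sample. Tlr8, a sensor of RNA breakdown products, stood at -2.59, -2.66 and -2.91 in WT and -1.07, -1.75 and -2.48 in WT+MI, so that WT+MI 3 came close to the WT arrays. Its difference was 0.96 ± 0.29 (SE, limma adjusted p = 0.0193). The probe read (A_66_P131283) carries the name of a predicted RefSeq transcript, XM_011247787, and the other 3 Tlr8 probes, that of NM_133212 included, were below background on all 12 arrays. The call of Tlr8 was lost without WT 3 or WT+MI 1 (limma adjusted p up to 0.0643), with normexp background correction, and with only these 2 groups in the model.

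Tlr9, the sensor of unmethylated CpG DNA, was the only called member that fell. It stood at 1.46, 1.36 and 1.43 in WT and at 1.06, 0.87 and 0.96 in WT+MI, with little spread in either group. It fell by 0.45 ± 0.10 (SE) on the log2 scale (limma adjusted p = 0.00373). Tlr7, the single-stranded RNA sensor next to Tlr8, was -0.85, -0.98 and -0.98 in WT and -1.77, -1.83 and -1.77 in WT+MI. These 6 values did not overlap, but TG 3 stood apart at -2.78 and widened the shared spread, and the difference of -0.86 ± 0.41 (SE) was not called (limma adjusted p = 0.105). Without TG 3 it was called (limma adjusted p = 0.00619). The second Tlr7 probe gave a difference of 0.00 ± 0.24 (SE), so the 2 probes disagreed. Tlr3, the double-stranded RNA receptor that signals through TRIF, was -2.80, -2.76 and -2.47 in WT and -2.98, -3.28 and -1.18 in WT+MI. The high value of WT+MI 3 was absent from the second Tlr3 probe, and the groups overlapped, with a difference of 0.20 ± 0.43 (SE, limma adjusted p = 0.732).

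In uninfarcted hearts no Toll-like receptor gene was called between TG and WT, against 1.49% of tested genes called higher and 1.13% called lower. At an unadjusted p under 0.05 in limma, 1 of the 10 genes, Tlr8, differed, against 17.9% of all tested genes. Tlr8 was -2.06, -1.91 and -1.99 in TG, above every WT array, with a difference of 0.74 ± 0.29 (SE, limma adjusted p = 0.215). Of all tested genes, 12.6% had TG arrays wholly above the WT arrays. Tlr5 was -3.22, -3.29 and -3.02 in TG, where it was above background on 2 arrays, and was not called against the undetected WT group (limma adjusted p = 0.481). Both were called when the model held WT and TG alone (limma adjusted p = 0.00934 for Tlr5 and 0.0248 for Tlr8). Tlr2 differed by 0.15 ± 0.31, Tlr4 by 0.09 ± 0.13 and Tlr13 by 0.36 ± 0.34 (SE).

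After infarction, transgenic hearts had lower signal than wild-type hearts for 4 of the 10 genes, and none was higher. Tlr2, Tlr5, Tlr6 and Tlr13 fell in TG+MI against WT+MI, against a background of 7.77% of tested genes called higher and 4.39% called lower. Of these 4, Tlr5 was tested only because it passed the filter in WT+MI. The median log2 difference of the 10 genes was -1.06, and that of all tested genes was 0.09. The WT+MI arrays are also those of the infarction comparison above, so high values on them enter both differences with opposite signs.

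Tlr2 was -0.55, 0.23 and -0.74 in TG+MI 1 to 3, below all WT+MI arrays, and TG+MI 2 was the highest of the 3. The difference was -1.42 ± 0.31 (SE, limma adjusted p = 0.029), which leaves 0.374 of the WT+MI signal. Of all tested genes, 11.3% had TG+MI arrays wholly below the WT+MI arrays. Tlr13 was 0.64, 1.46 and 0.64 in TG+MI, between TG and WT+MI and again highest in TG+MI 2, with a difference of -1.47 ± 0.34 (SE, limma adjusted p = 0.0312). Tlr6 was -3.47, -2.44 and -3.38 in TG+MI, a difference of -1.94 ± 0.52 (SE, limma adjusted p = 0.0411). Tlr5 was -2.35, -2.04 and -4.58, where TG+MI 2 and WT+MI 3 nearly met and TG+MI 3 was below background, and its difference was -2.33 ± 0.66 (SE, limma adjusted p = 0.0464).

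The other 6 genes were not called in this comparison. Tlr1 was -1.75, -0.82 and -4.52 in TG+MI, the widest spread of its 4 groups, overlapped with WT+MI and differed by -1.87 ± 0.75 (SE, limma adjusted p = 0.111). Tlr4 on its brightest probe was 1.49, 1.52 and 1.44 in TG+MI, below every WT+MI array as for 11.3% of all tested genes, and differed by -0.34 ± 0.13 (SE, limma adjusted p = 0.096). On the NM_021297 probe the 2 groups overlapped, at 0.62, 0.51 and -0.39 in TG+MI and 0.90, 0.47 and 0.82 in WT+MI. Tlr8 was -2.68, -2.18 and -2.55 and differed by -0.70 ± 0.29 (SE, limma adjusted p = 0.117). Tlr9 differed by 0.08 ± 0.10, Tlr7 by 0.37 ± 0.41 and Tlr3 by -0.32 ± 0.43 (SE), with limma adjusted p-values from 0.554 to 0.639.

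The 4 calls, at limma adjusted p from 0.029 to 0.0464, were easily lost when 1 array was left out. None of them held without WT+MI 1, without TG+MI 1 or without TG+MI 3, while 5 of the 10 genes were called without WT+MI 3 or without TG+MI 2. The Tlr5 call was also lost without any single WT or TG array, and the Tlr6 call without any single WT array or TG 1. Those arrays are not part of this comparison, and the differences stayed at -2.33 and -1.94 (limma adjusted p from 0.0506 to 0.0678). With slide as a block, which here rests on TG 3 against TG 1 and TG 2, the differences were -1.24 for Tlr2, -2.57 for Tlr5, -2.89 for Tlr6 and -1.41 for Tlr13, and the limma adjusted p rose to between 0.648 and 0.669. In that setting no gene at all was called in this comparison, so the loss is not particular to these 4 genes. Slide and group cannot be told apart within WT+MI and TG+MI themselves.

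**Figure D3:**
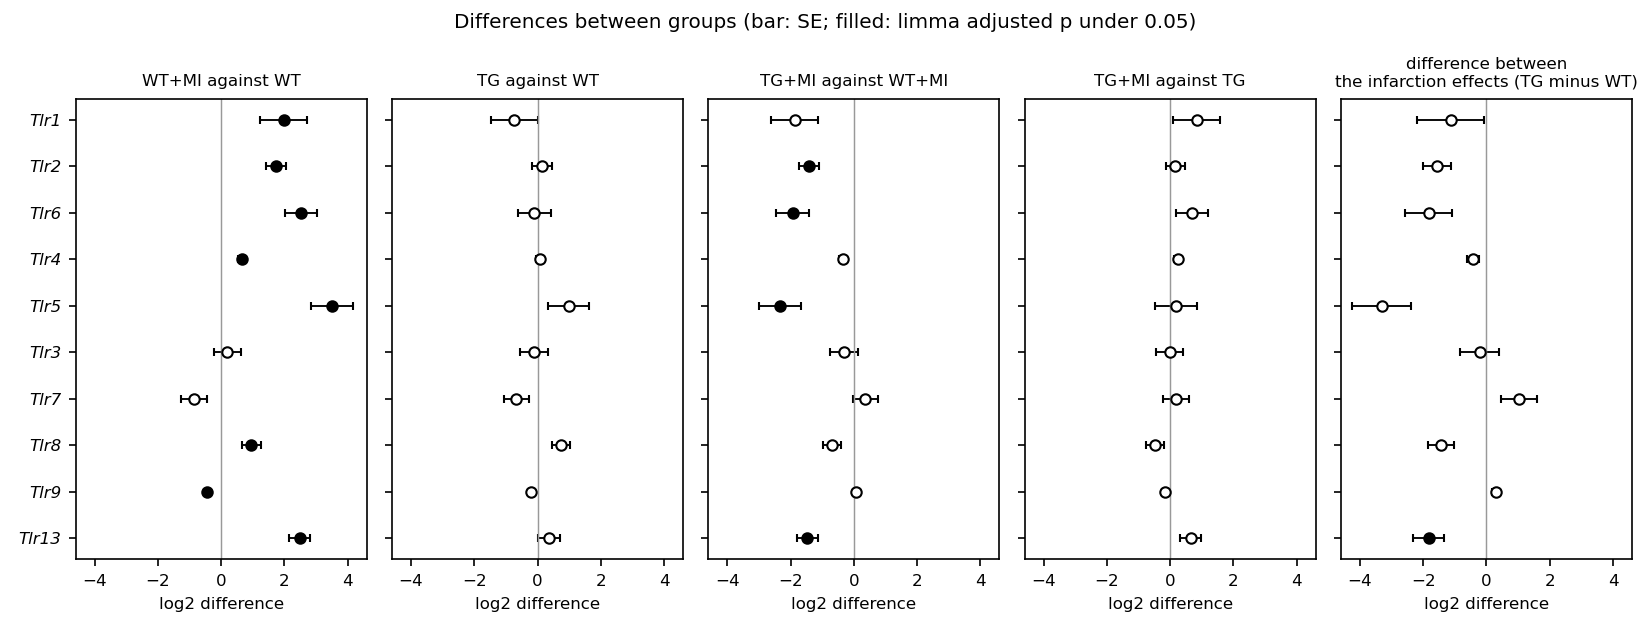
Log2 differences (horizontal axis) of the 10 genes in the 4 comparisons and in the difference between the infarction effects of the genotypes, with SE as bars and filled points for a limma adjusted p under 0.05. Points of Tlr5 against WT rest on a group below background. In WT+MI against WT 8 points are filled, in TG+MI against WT+MI 4, in the difference between the infarction effects 1, and in the comparisons of TG with WT and of TG+MI with TG none.

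Within transgenic hearts, no Toll-like receptor gene was called between TG+MI and TG, against 5.19% of tested genes called higher and 3.64% called lower. None of the 10 reached an unadjusted p under 0.05 in limma, against 25.7% of all tested genes. Tlr13 differed by 0.65 ± 0.34, Tlr4 by 0.24 ± 0.13, Tlr2 by 0.17 ± 0.31 and Tlr5 by 0.19 ± 0.66 (SE). Tlr8 went the other way, and all 3 TG+MI arrays were below all 3 TG arrays, with a difference of -0.48 ± 0.29 (SE, limma adjusted p = 0.323). Of all tested genes, 12.8% had TG+MI arrays wholly below the TG arrays. Tlr1 differed by 0.84 ± 0.75 and was called only without TG+MI 3, where it rose by 1.92 (limma adjusted p = 0.0165).

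The interaction asks whether infarction changed a gene by a different amount in transgenic and in wild-type hearts. Tlr13 was the only one of the 10 called, against 5.73% of tested genes called with a positive and 3.01% with a negative interaction. Its infarction difference was 2.48 in wild-type and 0.65 in transgenic hearts, an interaction of -1.83 ± 0.48 (SE, limma adjusted p = 0.0453). Tlr2 had an interaction of -1.57 ± 0.44 and Tlr8 of -1.44 ± 0.41 (SE), each with a limma adjusted p of 0.0519, just above the threshold. Tlr5 had a negative fitted interaction with the same adjusted p, but its size is not given, since WT was below background on every array and TG+MI 3 was as well. For Tlr1, Tlr4 and Tlr6 the interaction was -1.13 ± 1.06, -0.42 ± 0.18 and -1.83 ± 0.73 (SE), and for Tlr7 and Tlr9 it was positive, at 1.04 ± 0.57 and 0.30 ± 0.14. The Tlr13 interaction was not called with slide as a block (-1.79, limma adjusted p = 0.24), and only the omission of WT+MI 3 or TG+MI 2 kept it called among the 12 fits that left out 1 array.

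**Figure D4:**
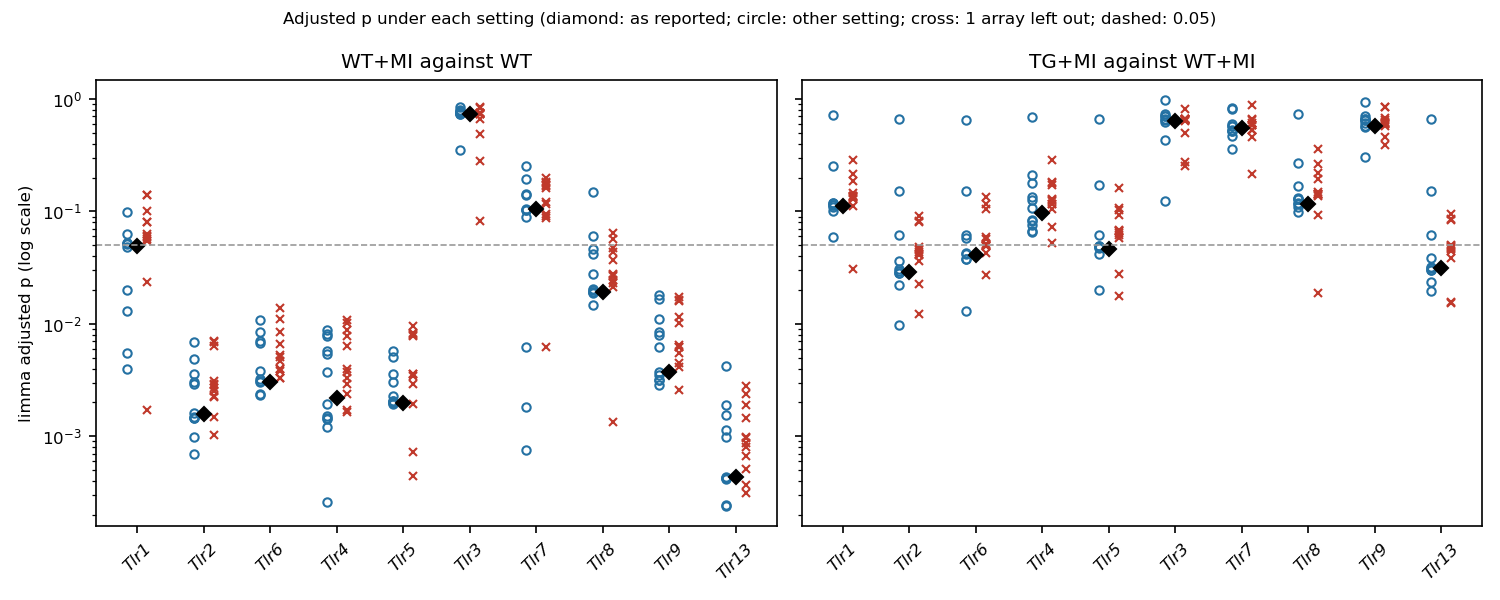
Limma adjusted p (vertical axis, log scale) of each gene in WT+MI against WT and in TG+MI against WT+MI, as reported (diamonds), under the other settings (circles) and with 1 array left out (crosses), with the 0.05 threshold dashed. Tlr2, Tlr4, Tlr5, Tlr6, Tlr9 and Tlr13 stay under the threshold in every setting of the first comparison, and no gene does in the second. In the second, no gene at all was called with slide as a block or with only the groups compared.

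Co-receptors and chaperones bring ligands to the receptors or carry the receptors to their membranes. Of 11 tested, 2 rose and 1 fell in WT+MI against WT, against 18.6% and 29.4% of all tested genes. In TG+MI against WT+MI, 1 rose and 2 fell, against 7.77% and 4.39% of all tested genes. No count of this or the following lists was tested against such shares. In TG against WT the shares were 1.49% higher and 1.13% lower, and in TG+MI against TG 5.19% and 3.64%. In the interaction they were 5.73% positive and 3.01% negative. Cd14, the lipopolysaccharide and lipopeptide co-receptor of Tlr4 and Tlr2, rose by 2.84 ± 0.36 (SE) in WT+MI (limma adjusted p = 0.000302). It was 4.17, 2.67 and 3.53 in WT+MI and 0.996, 2.12 and 1.43 in TG+MI, a difference of -1.94 ± 0.36 (SE, limma adjusted p = 0.0241), and its interaction was called at -2.65 ± 0.50 (SE, limma adjusted p = 0.0277). Tril, an accessory protein of Tlr3 and Tlr4, was above background on every WT array and on no WT+MI array, and was at least 1.37-fold lower in WT+MI (limma adjusted p = 0.000829). It was called higher in TG+MI, where 2 arrays were above background, than in WT+MI (limma adjusted p = 0.0415), with no size given against the undetected group. Unc93b1, the chaperone of the endosomal receptors, was 0.87 ± 0.23 (SE) lower in TG+MI than in WT+MI (difference -0.87, limma adjusted p = 0.0413), and its 0.51 ± 0.23 in WT+MI against WT was not called (limma adjusted p = 0.0949). Hsp90b1, the chaperone gp96, rose by 0.41 ± 0.12 (SE) in WT+MI (limma adjusted p = 0.0174). Ly96, the MD-2 partner of Tlr4, was not called in the 4 comparisons, with differences from -0.11 to 0.01.

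Of 22 adaptors, kinases and transcription factors tested out of 24 listed, 8 rose and 4 fell in WT+MI against WT, against 18.6% and 29.4% of all tested genes. In TG+MI against WT+MI, 1 of each direction was called, against 7.77% of all tested genes higher and 4.39% lower. Myd88, the adaptor of every member except Tlr3, rose by 1.48 ± 0.15 (SE) in WT+MI (limma adjusted p = 0.00011). It differed by -0.56 ± 0.15 in TG+MI against WT+MI (limma adjusted p = 0.039) and rose by 0.96 ± 0.15 (SE) in TG+MI against TG (limma adjusted p = 0.00457), where no receptor gene was called. Irf5, a transcription factor downstream of MyD88, rose by 2.01 ± 0.41, Tirap, the bridging adaptor of Tlr2 and Tlr4, by 0.79 ± 0.20, and Ticam1, which encodes TRIF, by 0.66 ± 0.18 (SE) in WT+MI, with limma adjusted p-values up to 0.0121. Irak1, a kinase of the MyD88 complex, was 0.35 ± 0.09 (SE) higher in TG+MI than in WT+MI (limma adjusted p = 0.042). In TG against WT the kinase gene Ripk1 rose by 0.46 ± 0.10 (SE, limma adjusted p = 0.0423), the only call of this list, against 1.49% of all tested genes higher and 1.13% lower. In the interaction Ripk1 was called at -0.70 ± 0.14 and Tab1 at 0.58 ± 0.16 (SE), against 3.01% of all tested genes negative and 5.73% positive.

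Of 11 tested brakes on the pathway, none was called in TG+MI against WT+MI, against 7.77% of all tested genes higher and 4.39% lower. In WT+MI against WT, 5 of the 11 rose and 3 fell, against 18.6% and 29.4% of all tested genes. The RNase gene Zc3h12a rose by 2.0 ± 0.23, the NF-kappaB inhibitor gene Nfkbia by 1.62 ± 0.36 and the A20 gene Tnfaip3 by 1.19 ± 0.30 (SE), with limma adjusted p-values up to 0.00795. Sigirr, a receptor that dampens TIR signalling, fell by 1.01 ± 0.17, and Tollip, an inhibitor of IRAK1, by 0.34 ± 0.11 (SE). In TG+MI against TG, Zc3h12a rose by 1.57 ± 0.23 and Socs1 by 1.20 ± 0.32, and the phosphatase gene Dusp1 differed by -1.03 ± 0.23 (SE). No other brake was called in that comparison, against 5.19% of all tested genes higher and 3.64% lower. Dusp1 was already 2.07 ± 0.23 (SE) higher in TG than in WT (limma adjusted p = 0.00378), the only brake called there, against 1.49% of all tested genes higher and 1.13% lower. The interaction was called for Dusp1 at -1.99 ± 0.33, Nfkbia at -1.95 ± 0.51 and Sigirr at 0.89 ± 0.24 (SE), against 5.73% of all tested genes positive and 3.01% negative.

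Of 12 genes for endogenous ligands, all tested, 9 rose and 2 fell in WT+MI against WT, against 18.6% and 29.4% of all tested genes. Saa3, an acute-phase protein gene above background on 1 WT array, differed by 8.12 ± 0.97, and the heat shock gene Hspa1a by 5.17 ± 0.91 (SE). The matrix glycoprotein gene Tnc was below background on every WT array and at least 13.2-fold higher in WT+MI. None was higher in TG+MI than in WT+MI and 4 were lower, against 7.77% and 4.39% of all tested genes. The largest falls were those of S100a8 and S100a9, the calprotectin subunits, at -3.02 ± 0.49 and -2.72 ± 0.44, and of Tnc at -2.27 ± 0.66 (SE). Tnc met the filter only in WT+MI, where it was highest, so its calls are not independent of the filter. In TG+MI against TG, 6 of the 12 rose and 1 fell, against 5.19% and 3.64% of all tested genes. In that comparison Saa3 rose by 6.57 ± 0.97, S100a9 by 4.21 ± 0.44 and S100a8 by 4.03 ± 0.49 (SE), and the proteoglycan gene Bgn differed by -1.51 ± 0.17 (SE). Between the uninfarcted groups Bgn was 0.95 ± 0.17 higher in TG, and S100a9 differed by -2.07 ± 0.44 (SE). The interaction was negative and called for Fn1 at -2.78 ± 0.58, Vcan at -1.93 ± 0.43 and Bgn at -1.26 ± 0.24 (SE), against 3.01% of all tested genes. These are genes of matrix proteins, but the listed matrix genes Dcn, at 0.26 ± 0.22 (SE), and Tnc were not called (limma adjusted p = 0.43 and 0.084).

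Of the 14 listed target genes, 11 were tested, and 8 rose and none fell in WT+MI against WT, against 18.6% and 29.4% of all tested genes. Il1b, above background on 1 WT array, differed by 6.98 ± 0.54 (SE), Il6 was at least 50.4-fold higher and Ptgs2 at least 16.6-fold higher, the last 2 being below background on every WT array. Between the infarcted groups 4 fell in TG+MI, against 4.39% of all tested genes. They were Il1b at -3.04 ± 0.54, Cxcl2 at -2.69 ± 0.51, Ccl2 at -1.46 ± 0.39 and Nos2 at -1.19 ± 0.22 (SE). Cxcl2 met the filter only in WT+MI, where it was highest, so its calls are not independent of the filter. Within transgenic hearts 7 of the 11 rose in TG+MI, against 5.19% of all tested genes. Among them were Il6 by 5.73 ± 0.82 and Ccl2 by 4.17 ± 0.39 (SE), while Il1b, below background on every TG array, was at least 13.3-fold higher. With slide as a block the count there was 3. Target genes thus rose after infarction in transgenic hearts while no receptor gene was called, and the 2 sets were not tested against each other. With slide as a block no gene at all was called in TG+MI against WT+MI, so that setting says nothing particular about these lists. Between the uninfarcted groups, Nos2 was lower in TG at -1.14 ± 0.22 (SE), and Ptgs2 was at least 2.66-fold higher. The interaction was called with a negative sign for Il1b, Cxcl2 and Ptgs2 (limma adjusted p = 0.0491, 0.0477 and 0.0358). No size is given, because Cxcl2 was above background on no WT or TG array, Ptgs2 on no WT array and Il1b on no TG array.

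Some leukocyte markers moved with these differences and others did not. Of all tested genes, 18.6% were called higher and 29.4% lower in WT+MI against WT, and 7.77% and 4.39% in TG+MI against WT+MI. The 8 neutrophil markers summed to 141 to 157 times the array's 75th percentile in WT, 305 to 502 in WT+MI, 116 to 127 in TG and 148 to 164 in TG+MI. Csf3r gave 32.4% to 98.1% of that sum, depending on the array. Of the 7 tested, 4 rose in WT+MI against WT and 3 fell in TG+MI against WT+MI, S100a8 and S100a9 standing in both this and the ligand list. Cxcr2 was below background on every WT and TG array and was called 3.01 ± 0.44 (SE) lower in TG+MI than in WT+MI (difference -3.01, limma adjusted p = 0.0241), while Ly6g differed by 0.10 ± 0.19 in WT+MI against WT and was not called in either comparison. The 14 macrophage and monocyte markers summed to 140 to 159 in WT, 148 to 183 in WT+MI, 149 to 188 in TG and 173 to 235 in TG+MI. Ly6c2 gave 38.4% to 71.2% of that sum. Its log2 level was 6.0, 6.3 and 6.1 in WT+MI and 6.6, 6.5 and 7.4 in TG+MI. The sum therefore follows Ly6c2 in large part and does not give the direction of the other markers. Of these 14 markers, 4 rose in WT+MI against WT, and 2, Cd68 and Ccr2, fell in TG+MI against WT+MI, where the median difference was -0.29 with 9 negative and 5 positive. Cd68 differed by 1.77 ± 0.32 and -1.17 ± 0.32 in these comparisons and Ccr2 by 3.44 ± 0.76 and -2.70 ± 0.76 (SE). Ly6c2 differed by -0.09 ± 0.24 and 0.72 ± 0.24, and C1qb by -0.07 ± 0.12 and 0.05 ± 0.12 (SE), none of them called. Cd68, Ccr2, Ly6c2 and C1qb were named after their values were seen. Of the 6 dendritic cell markers tested, 3 rose and 1 fell in WT+MI against WT and 1 fell in TG+MI against WT+MI, and of the 3 B cell and 3 T cell markers tested none was called in either comparison. Atrial markers summed to 54.4 to 55.9 in WT, 235 to 676 in WT+MI, 476 to 1490 in TG and 74.9 to 322 in TG+MI, and adipocyte markers to 6.55 to 125 in TG against at most 4.48 elsewhere. Nppa gave 31.4% to 99.5% of the atrial sum, and Cfd 31.3% to 88.2% of the adipocyte sum. In WT+MI 1 to 3, Myl7 was 6.7, -4.5 and -4.0 and Sln 6.1, -5.6 and -5.1, so both were high on WT+MI 1 alone. The part of these markers in the receptor differences was not tested.

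Across the 12 arrays, members also varied within their groups. Taking each array's deviation from its group mean, Pearson's r was 0.917 between Tlr2 and Tlr13, 0.881 between Tlr8 and Tlr13 and 0.733 between Tlr2 and Tlr8, while Tlr7 and Tlr9 had r between -0.07 and 0.16 with those 3 genes and each other. Tlr4, read here only on its brightest probe far from that of the RefSeq transcript, had r = 0.735 with Tlr8, 0.567 with Tlr13, 0.466 with Tlr9, 0.354 with Tlr2 and -0.195 with Tlr7. The same deviation of the mean of the neutrophil markers had r = 0.769 with Tlr8, 0.753 with Tlr13, 0.638 with Tlr4, 0.619 with Tlr2, 0.458 with Tlr9 and -0.205 with Tlr7. Other marker sets also gave high values. T cell markers had r = 0.726 with Tlr9, 0.652 with Tlr4 and 0.639 with Tlr8, and macrophage and monocyte markers 0.545 with Tlr2 and -0.523 with Tlr9. These are descriptions over arrays that share slides and scaling, and WT+MI 1 is the highest array for Tlr2, Tlr8 and Tlr13 alike. The genes with the most similar deviations were Slc9a3r1 (r = 0.979) and Gnai3 (0.973) for Tlr2, Fcgr2b (0.976) and Relt (0.974) for Tlr8, and Rara (0.985) and Tspan14 (0.982) for Tlr13. For Tlr4 they were Nrap (0.936) and Klra1 (0.931), for Tlr7 the probe name NAP028575-1 (0.953) and Myf6 (0.934), and for Tlr9 a lincRNA interval probe (0.972) and Gm2138 (0.964). With 19760 genes compared, 0.45% had r over 0.9 with Tlr13 and 0.415% with Tlr2, and 0.243% or less with each of the others.

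Promoter windows of 250 bases before the gene start were read from RefSeq (GRCm38.p6) for the 8 members with an entry, Tlr1 and Tlr6 having 2 windows each. They were searched on both strands for short forms of the motifs of NF-kappaB, PU.1 (GAGGAAGT), the interferon response element and AP-1 (TGANTCA). These motifs occur in 45.8%, 2.44%, 2.98% and 6.75% of the 32851 windows of that length. The NF-kappaB letters were found in Tlr2, Tlr3, Tlr5 and 1 window of Tlr6, those of PU.1 in 1 window of Tlr1, those of the interferon response element in the other window of Tlr6, and those of AP-1 in Tlr9. In Tlr2 and in that Tlr6 window, 2 overlapping matches of the same motif were found. The windows of Tlr13, the member with the called interaction, and of Tlr9, the member that fell, are shown with matches in capitals.
Tlr13 (chrX:106143025-106143274, plus strand): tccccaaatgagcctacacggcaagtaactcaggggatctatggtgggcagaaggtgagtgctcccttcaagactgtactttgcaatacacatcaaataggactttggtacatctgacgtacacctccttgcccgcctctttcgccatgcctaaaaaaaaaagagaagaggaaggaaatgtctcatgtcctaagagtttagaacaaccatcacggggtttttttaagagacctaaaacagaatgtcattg
Tlr9 (chr9:106222348-106222597, plus strand): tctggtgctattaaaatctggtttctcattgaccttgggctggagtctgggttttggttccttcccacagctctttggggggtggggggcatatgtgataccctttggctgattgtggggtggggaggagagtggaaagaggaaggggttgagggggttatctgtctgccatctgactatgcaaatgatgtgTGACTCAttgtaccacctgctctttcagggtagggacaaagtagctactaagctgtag
The Tlr9 match begins 58 bases before the start, and none of the 4 motifs matched in the Tlr13 or Tlr8 window. A match is a run of letters and not a bound site.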

How the data were processed

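Per the file headers, spots were read and background-subtracted with Agilent Feature Extraction 12.0.3.1 on a design with mm9 coordinates, and the deposited processed signal is a linear Cy3 intensity, not normalized between arrays. The authors' deposited value table is on a log2 scale and ranked probes as the matching array did (Spearman at least 0.99999), with column medians of 4.21 to 4.22. Its centring was not stated. Limma is the tool named, with no version, per the submitters' processing notes.

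Here log2 signal minus the array's 75th percentile over probes was used, after 49 probes with only outlier spots on some array were left out. Each gene was represented by its brightest probe. Names were updated through RefSeq accession (32966 probes), symbol (10218) or synonym (520), and 12852 kept the name in the files. The 4 groups entered 1 limma 3.58.1 model (lmFit, eBayes, R 4.3.3, with data.table in version 1.17.8), checked on simulated data, with Benjamini-Hochberg adjustment over 19761 genes. Named were all members, up to 3 called genes of largest difference per pathway list and comparison, a few fixed co-receptors, adaptors and brakes, and the 2 genes closest to each member detected on every array. The members, lists and tests were chosen with earlier results of these data known. Alternatives were other background correction, scaling, filter, probe choice, blocks, sample subsets and each array left out. Same-numbered samples of different groups had deviations correlated at -0.255 to 0.119 (18 pairs), against -0.164 to 0.234 for 36 other pairs, so the numbers were not taken to pair samples. The number of arrays limits the precision.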

Additional observations from a re-analysis of the deposited data

Results flagged for a closer look

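The infarction effects of Tlr13 and Tlr8 in the 2 genotypes drew attention. For Tlr13 the interaction was -1.83 on the log2 scale and passed limma's test of the difference (adjusted p = 0.0453). For Tlr8 it was -1.44 (limma adjusted p = 0.0519), so the difference did not pass that test, and it was picked out by direction, since every WT+MI array was above every WT array and every TG+MI array below every TG array. Taken singly, 25% of all tested genes had WT+MI arrays wholly above WT, and 12.8% had TG+MI arrays wholly below TG. The results of both genes rest on 3 arrays a group, and Tlr8 rests on a probe of a predicted transcript.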

How the results depend on the processing

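In WT+MI against WT the count of members called was 8, and 5 with the filter for all 12 arrays, under which 6 members were tested. It ranged from 6 to 8 when 1 array was left out. In TG against WT the count was 0, and 2 with only the groups compared. In TG+MI against WT+MI it was 4, fell to 2 with the filter for all 12 arrays, and to 0 with no filter, with slide as a block and with only the groups compared. In the last 2 of those settings no gene at all was called. It ranged from 0 to 5 when 1 array was left out. In TG+MI against TG it was 0, with a range of 0 to 1. For the interaction it was 1, and became 2 with normexp background and with the mean of probes, 3 with the filter for all 12 arrays, and 0 with no filter and with slide as a block, with a range of 0 to 4. The causes were not tested. With the replicate number as a block the counts were 7, 0, 3, 0 and 1 in the order above, and the interaction call passed from Tlr13 (adjusted p = 0.055) to Tlr5 (adjusted p = 0.0489). Of the 13 member differences called, 6 held in every alternative and 7 were lost in at least 1. No called difference changed direction. Scaling by the percentile over spots and reading Tlr4 from its NM_021297 probe were chosen after seeing the data, and neither changed a count. Tlr5 in WT, and 7 of the 20 probes kept, gave no signal well above background on at least 1 whole group.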
